A study of Homo sapiens with 24 samples.

Results

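The 7 subunits of respiratory complex I that are encoded in the mitochondrial genome, MT-ND1, MT-ND2, MT-ND3, MT-ND4L, MT-ND4, MT-ND5 and MT-ND6, are described here across wild-type and ABHD6 knockout Huh7 cells. They were taken as the rows of the deposited expression table whose Ensembl identifier carries one of these symbols in GENCODE release 29, which gave 7 of the 58024 rows. Huh7 is a human hepatoma line, and ABHD6 encodes a serine hydrolase that cleaves monoacylglycerols. The cells were either wild type (WT) or ABHD6 knockout (KO). Each genotype was taken untreated in basal medium, called 0 h, and following 24 h or 48 h of exposure to the saturated fatty acid palmitic acid at 800 µM. The 6 resulting groups had 4 libraries each, 24 in all, prepared with a poly(A)-selecting kit that keeps the strand. Untreated cultures of the later times are not among the samples, and the effects of palmitic acid and of culture time cannot be told apart. The labels give neither the number of KO clones nor whether libraries came from separate cultures, and the p-values given below therefore rest on a spread between libraries that may be technical.

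Complex I passes electrons from NADH to ubiquinone and pumps protons across the inner mitochondrial membrane. All 7 mitochondrially encoded subunits lie in its membrane arm, while the other subunits are encoded in the nucleus and imported. The mitochondrial genome is transcribed from both strands as long RNAs that are cut into messenger, ribosomal and transfer RNAs, and most of its messenger RNAs receive a short poly(A) tail. MT-ND4L and MT-ND4 stay joined in a single messenger RNA with overlapping reading frames. MT-ND6 is the only subunit gene of the light strand, and its messenger RNA is known to lack a poly(A) tail.

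The 3′ ends of the 7 genes are shown because the libraries were made from poly(A) RNA and the genes differ in whether the tail is needed to close the reading frame. The sequences are those of GENCODE release 29 (GRCh38), matched for all 7, with the last 30 bases of each written 5′ to 3′ on the coding strand. Capitals mark the stop codon, or the bases left over after the last whole codon where the gene is no multiple of a codon and the tail completes the stop.
MT-ND1: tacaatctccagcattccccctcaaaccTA
MT-ND2: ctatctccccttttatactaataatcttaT
MT-ND3: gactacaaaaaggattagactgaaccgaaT
MT-ND4L: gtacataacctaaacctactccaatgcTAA
MT-ND4: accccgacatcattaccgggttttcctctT
MT-ND5: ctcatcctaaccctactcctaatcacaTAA
MT-ND6: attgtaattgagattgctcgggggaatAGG
MT-ND1 ends with 2 bases over its 318 whole codons, and MT-ND2, MT-ND3 and MT-ND4 each end with 1. MT-ND4L and MT-ND5 carry a whole TAA, and MT-ND6 ends in AGG, which the human mitochondrial code reads as a stop.

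On the mitochondrial chromosome of GRCh38 the plus-strand genes are MT-ND1 (ENSG00000198888.2, chrM:3307-4262, 956 bp), MT-ND2 (ENSG00000198763.3, chrM:4470-5511, 1042 bp), MT-ND3 (ENSG00000198840.2, chrM:10059-10404, 346 bp) and MT-ND4L (ENSG00000212907.2, chrM:10470-10766, 297 bp). They are followed by MT-ND4 (ENSG00000198886.2, chrM:10760-12137, 1378 bp) and MT-ND5 (ENSG00000198786.2, chrM:12337-14148, 1812 bp). MT-ND6 (ENSG00000198695.2, chrM:14149-14673, 525 bp) is annotated on the minus strand and abuts the end of MT-ND5. Each gene is a single exon. MT-ND4L and MT-ND4 share 7 bases, shown in capitals at the end of the first and the start of the second.
MT-ND4L, last 30 bases: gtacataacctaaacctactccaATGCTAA
MT-ND4, first 30 bases: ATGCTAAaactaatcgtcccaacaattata
The shared bases hold the start codon of MT-ND4 and the stop codon of MT-ND4L in different frames. MT-ND6 differs in composition: G made up 35.6% and C 7.05% of its coding strand, against 9.50% to 12.1% G and 29.5% to 36.0% C in the other 6. Read on the plus strand, the end of MT-ND6 gives the following letters, with the complement of its AGG in capitals.
MT-ND6, last 30 bases, reverse complement: CCTattcccccgagcaatctcaattacaat

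The strand that the counting assigned to each gene limits what these rows can be called. The library kit keeps the strand, but no source used here gives the strand setting with which fragments were counted. With the opposite setting the row of MT-ND6 would hold plus-strand RNA across that gene, and the other 6 rows would hold minus-strand RNA. Of all summed expression, 56.1% to 58.1% fell on rows of the antisense class in the libraries at 0 h. That range was 45.0% to 48.8% at 24 h and 44.0% to 47.4% at 48 h. MT-ND6, whose messenger RNA is known to lack a poly(A) tail, was the highest of the 7 rows in 24 of 24 of these poly(A) libraries (mean 32674 FPKM). Which of the 2 strands the RNA of a row came from was not tested. Every value below is that of the named row, and not of a messenger RNA of known strand. No exon of another gene is annotated opposite any of the 7.

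The genotype labels could not be checked on ABHD6 itself, which was above 0 in 3 of 12 WT and 4 of 12 KO libraries, with a mean of 0.239 FPKM. FPKM is a count of fragments corrected for the size of the transcript and for how many fragments a library gave. The number of fragments behind each library, read from the smallest steps of the values, was 407978 to 747743. It was 407978 to 510776 at 0 h and 572036 to 747743 later, and its part in the changes with time was not tested. Of the 10 hepatocyte markers checked all had a mean of at least 1 FPKM, while VWF, CDH5 and KDR (endothelial), DCN (fibroblast) and KRT7 (biliary) were at 0 in all 24 libraries. Other markers of the same lists were present: endothelial PECAM1 (mean 5.27 FPKM, above 0 in 24 libraries) and STAB2 (7.03, in 17), biliary SOX9 (18.6, in 24), EPCAM (3.19, in 21), KRT19 (2.13, in 6) and CFTR (1.82, in 10). Of the myeloid markers LYZ averaged 183, CD68 8.29 and CD14 1.64 FPKM, whereas the pan-leukocyte gene PTPRC averaged 0.0797. Of 5 stellate and fibroblast markers only ACTA2 (1.15) had a mean of 1 FPKM or more.

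All 7 subunits were among the highest rows of the table and above 0 in all 24 libraries, and their order was the same in every library. MT-ND6 was highest in 24 of 24 libraries, followed by MT-ND5, MT-ND4, MT-ND3, MT-ND4L, MT-ND2 and MT-ND1. The means over the 24 libraries ran from 808 FPKM for MT-ND1 to 32674 FPKM for MT-ND6, and placed them at rank 155 and rank 4 of 57979 genes by level. MT-ND5 was at rank 10 and MT-ND4 at rank 19. These levels are per length, but the lengths of MT-ND4L and MT-ND3 are near those of sequenced fragments, so their levels depend on the length correction more than the others do. The rows held about 65 to 1167 fragments per library for MT-ND1, 73 to 1047 for MT-ND4L, and 2334 to 22928 for MT-ND5.

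**Figure D1:**
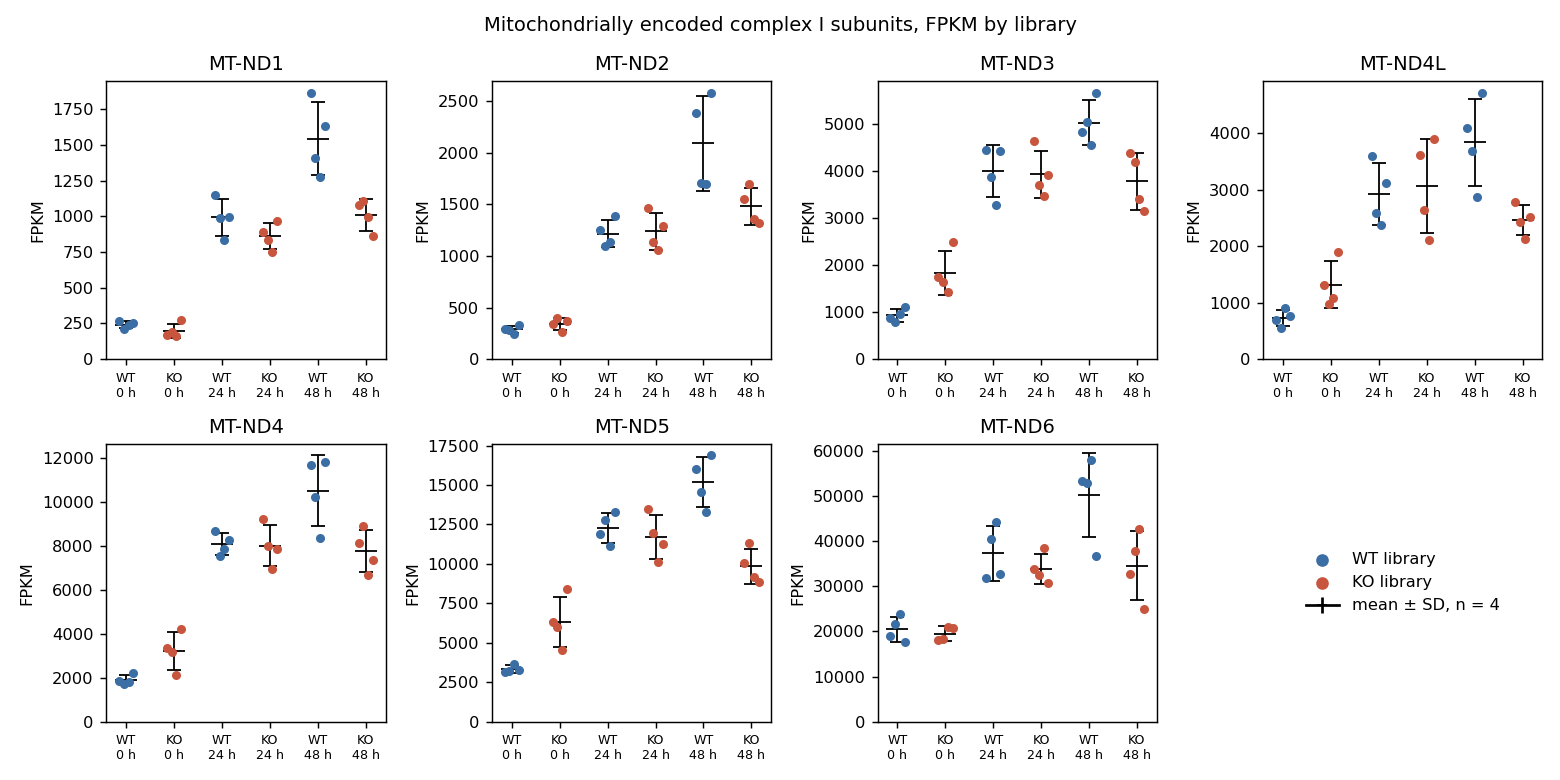
FPKM of each of the 7 rows on a linear axis from 0, with a point for each library (blue WT, red KO) and bars for the mean ± SD of 4 libraries. All 7 rows are lowest at 0 h. At 0 h the KO libraries lie above all WT libraries for MT-ND3, MT-ND4L and MT-ND5, and at 48 h WT has the highest mean in each panel.

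MT-ND5 and MT-ND4 encode large proton-pumping subunits of the membrane arm, related to antiporters. MT-ND5 was at 3158, 3212, 3683 and 3307 FPKM in the WT libraries at 0 h and at 6334, 5975, 4526 and 8390 in the KO libraries. It reached 11908, 12775, 11117 and 13258 FPKM in WT and 13454, 11986, 10139 and 11277 in KO at 24 h. At 48 h the values were 16005, 14585, 13291 and 16922 FPKM in WT and 10067, 11344, 9162 and 8883 in KO. The KO libraries were thus all above WT at 0 h, mixed with WT at 24 h and all below WT at 48 h. MT-ND4 followed the same course, from a mean at 0 h of 1904 ± 205 FPKM for WT and 3214 ± 865 for KO (SD, n = 4) to 10519 ± 1611 in WT and 7765 ± 956 in KO at 48 h. Its groups overlapped at 0 h, where KO replicate 2 (2122 FPKM) was below WT replicate 3 (2202 FPKM), and at 48 h.

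MT-ND3 and MT-ND4L encode small subunits between the ubiquinone site and the pumping subunits. MT-ND3 was at 874, 790, 960 and 1100 FPKM in WT and 1754, 1641, 1437 and 2500 in KO at 0 h. At 48 h it was at 4844, 5057, 4569 and 5677 FPKM in WT and 4382, 4195, 3406 and 3147 in KO, again with no overlap and with the order reversed. For MT-ND4L the means at 0 h were 725 ± 144 FPKM (WT) and 1315 ± 415 (KO), and those at 48 h 3842 ± 769 and 2465 ± 264 (SD, n = 4). Its groups did not overlap at either time. At 24 h both genes overlapped between the genotypes, with means of 4013 and 3931 FPKM for MT-ND3 and 2918 and 3065 for MT-ND4L.

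MT-ND1, which lines the ubiquinone channel, and MT-ND2, the remaining antiporter-like subunit, are the first 2 subunit genes on the plus strand and the lowest rows. MT-ND1 was at 265, 212, 239 and 249 FPKM in WT and 169, 187, 158 and 271 in KO at 0 h. It reached 1863, 1410, 1277 and 1632 FPKM in WT and 1078, 1111, 998 and 861 in KO at 48 h. The genotypes overlapped for MT-ND1 at 0 h, where 3 of 4 KO libraries were the lowest, and KO was below all WT libraries at 48 h. MT-ND2 averaged 287 ± 37.8 FPKM (WT) and 342 ± 58.6 (KO) at 0 h against 2093 ± 460 and 1483 ± 178 at 48 h (SD, n = 4), and the genotypes overlapped at every time.

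MT-ND6, another small subunit of the membrane arm, was at 18985, 21695, 23758 and 17572 FPKM in WT and 18020, 18292, 20997 and 20872 in KO at 0 h. At 24 h it was at 31780, 40509, 44317 and 32675 FPKM in WT and 33844, 32591, 38463 and 30733 in KO. At 48 h WT had 53364, 52818, 57903 and 36619 FPKM and KO had 32698, 37878, 42766 and 25015. The genotypes overlapped at each time. In all 6 groups the library numbered replicate 2 had the highest value, and in 4 of 6 the library numbered replicate 3 had the lowest.

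The groups could be put in order for each row by their means. For MT-ND3, MT-ND4L, MT-ND4 and MT-ND5 the order began with WT at 0 h, then KO at 0 h, and ended with WT at 48 h. The step from KO at 0 h to the next group had no overlap of libraries for these 4 rows. Neighbouring steps among WT at 24 h, KO at 24 h and KO at 48 h overlapped for all 7 rows. The step up to WT at 48 h was free of overlap for MT-ND1, MT-ND3 and MT-ND5, and overlapped for the others.

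KO and WT cells were first compared in basal medium, without palmitic acid. The number of KO clones is not given, so the knockout and a difference between clones or cultures cannot be told apart. MT-ND3 was higher in KO by 0.96 ± 0.15 (log2 fold change ± its standard error) and MT-ND5 by 0.88 ± 0.13, or 1.94-fold and 1.85-fold. The test was limma on log2(FPKM + 0.5) over 17252 genes, with a call at a Benjamini-Hochberg adjusted p under 0.05, and the adjusted p was 0.00354 and 0.00277. Both genes were higher in 4 of 4 KO libraries than in any WT library. Of the 7 subunits 2 were called, both higher, where 0.0985% of all genes tested were called (0.0232% higher). Libraries of KO lay above those of WT without overlap for 3 of the 7, MT-ND3, MT-ND4L and MT-ND5, against 1.41% of all genes.

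MT-ND4 and MT-ND4L had estimates of similar size that missed the threshold, 0.72 ± 0.15 (adjusted p = 0.0709, limma) and 0.83 ± 0.21 (adjusted p = 0.213). MT-ND2 had 0.25 ± 0.15, MT-ND6 -0.06 ± 0.15 and MT-ND1 -0.33 ± 0.15, with adjusted p of 0.771, 0.993 and 0.702. The median over the 7 was 0.72, against 0 over all genes tested. Without KO replicate 2, the lowest KO library for MT-ND4 and MT-ND5 at 0 h, MT-ND4 was called as well (0.90, adjusted p = 0.00213). The calls of MT-ND3 and MT-ND5 were lost without the intensity trend of the variance (adjusted p = 0.209 and 0.225) and in a fit of only these 8 libraries (0.405 and 0.507).

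**Figure D2:**
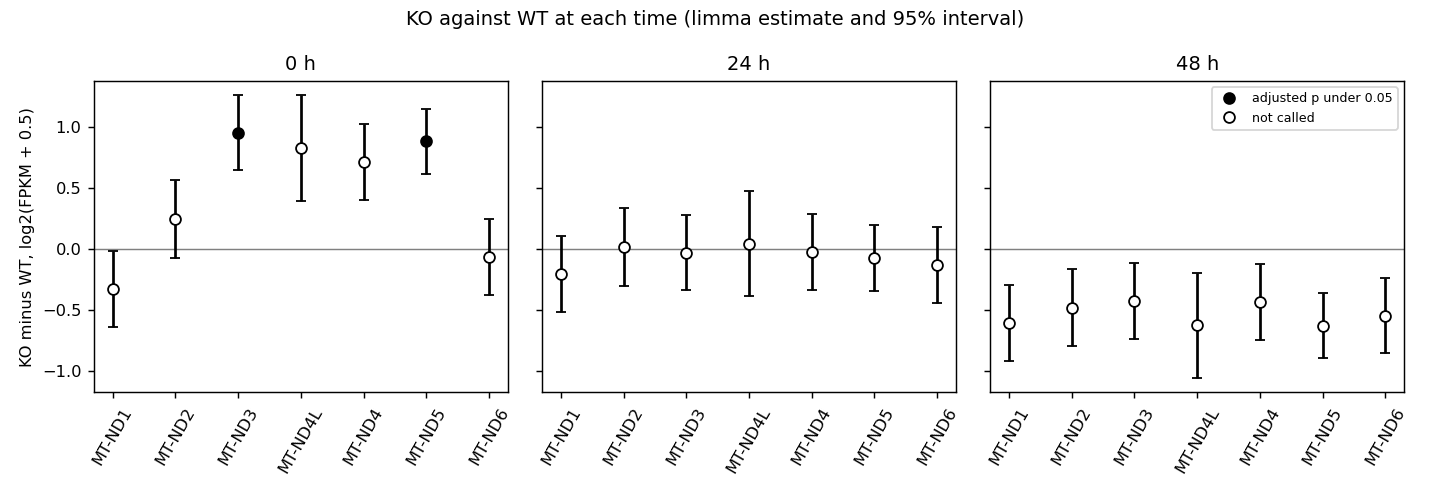
KO minus WT on the log2(FPKM + 0.5) scale for the 7 rows at each time, with the 95% interval of the limma estimate and filled points where the adjusted p was under 0.05. At 0 h MT-ND3 and MT-ND5 are called and lie near 0.9, at 24 h every interval spans 0, and at 48 h all 7 points lie between -0.62 and -0.42.

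Along the mitochondrial genome the estimates at 0 h were low at the start and high in the second part of the plus strand. After MT-ND1 (-0.33) and MT-ND2 (0.25) came the rows of complexes IV and V, MT-CO1 (0.01), MT-CO2 (0.15), MT-ATP8 (-0.15), MT-ATP6 (0.27) and MT-CO3 (0.71). The neighbours of MT-CO3 are MT-ND3 (0.96), MT-ND4L (0.83), MT-ND4 (0.72) and MT-ND5 (0.88), and MT-CYB of complex III, the last plus-strand gene, had 0.39. Among these 6 other rows only that of MT-CO3, which encodes a core subunit of cytochrome c oxidase, was called (adjusted p = 0.00700, limma). The 5 rows from MT-CO3 to MT-ND5 were thus the 5 highest of 13. This order was read after the values were seen and was not tested.

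**Figure D3:**
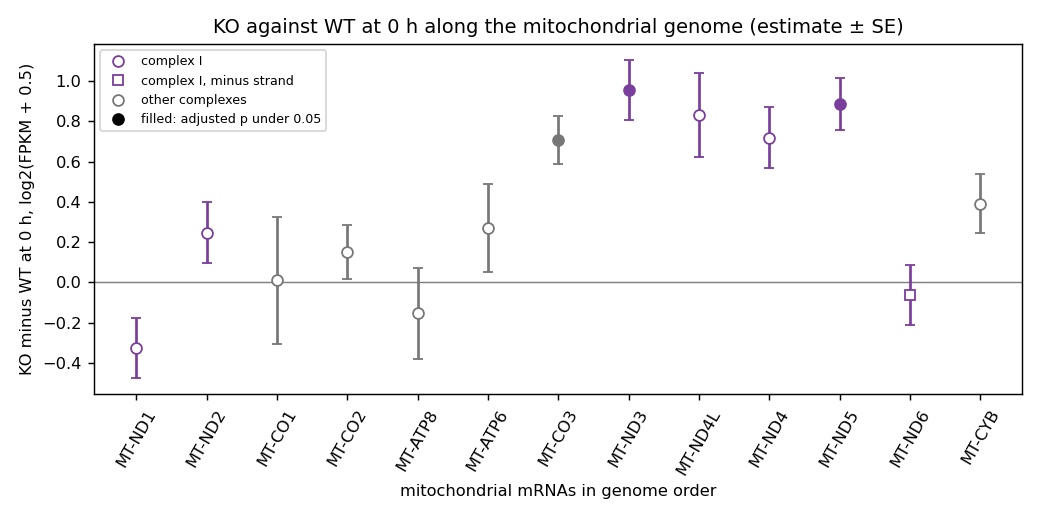
KO minus WT at 0 h, on the log2(FPKM + 0.5) scale with its standard error, for the rows of the 13 mitochondrial messenger RNA genes in genome order. Filled points had an adjusted p under 0.05, and the square is MT-ND6 on the minus strand. The rows from MT-CO3 to MT-ND5 lie between 0.71 and 0.96, above the others.

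Ratios within a library do not depend on scaling between libraries. Those over MT-ND1 set rows with high estimates at 0 h over the row with the lowest, in the same libraries. They restate that contrast and add no separate support for it. At 0 h MT-ND1 held only about 90 to 112 fragments per WT library and 65 to 110 per KO library. The FPKM of MT-ND5 was 13.9 ± 1.66 times that of MT-ND1 in untreated WT cells and 32.3 ± 3.79 times in untreated KO cells (SD, n = 4). Every KO library (28.6 to 37.5) lay above every WT library (11.9 to 15.4). At 24 h the ratio was 12.5 ± 1.43 (WT) and 13.7 ± 1.48 (KO), and later, at 48 h, 9.93 ± 0.893 and 9.76 ± 0.584, and there the genotypes overlapped. The ratio of MT-ND3 to MT-ND1 at 0 h was 3.87 ± 0.472 (WT) and 9.37 ± 0.706 (KO), and that of MT-ND4 to MT-ND1 7.92 ± 0.782 and 16.4 ± 2.68. The ratio of the row of MT-ND4L to the row of MT-ND4 ran from 0.274 to 0.506 over the libraries. Its group means were 0.319 to 0.414, and the genotypes overlapped at 0 h and 24 h. At 48 h it was 0.364 ± 0.0244 in WT and 0.319 ± 0.0323 in KO, with all KO libraries below WT. The highest KO library (0.342) came close to the lowest WT library (0.345).

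The row of MT-ND6 stood against the summed FPKM of the other 6 at 2.66, 3.20, 3.03 and 2.21 in the WT libraries at 0 h and at 1.36, 1.48, 2.19 and 1.18 in the KO libraries. KO libraries were all below WT, though KO replicate 2 (2.19) came close to WT replicate 3 (2.21). In the 4 later groups the mean ratio was 1.20 to 1.35 and the genotypes overlapped. The ratio of WT cells was thus lower at 24 h (1.02 to 1.67) and 48 h (0.845 to 1.81) than at 0 h without overlap, while that of KO cells overlapped between 0 h (1.18 to 2.19) and both later times. These ratios are descriptions, and no test was made on them. With the geometric mean of the 6 rows in place of their sum, WT and KO overlapped at 0 h as well.

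**Figure D4:**
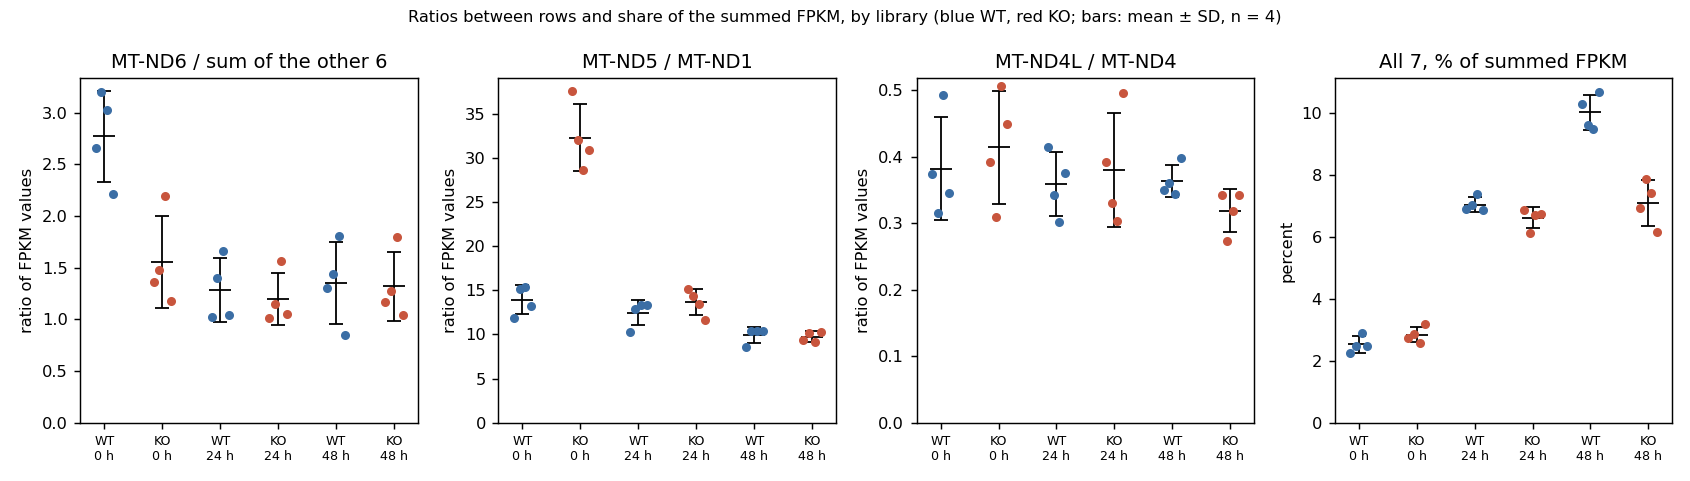
Ratio of MT-ND6 to the summed other 6 rows, ratios of MT-ND5 to MT-ND1 and of MT-ND4L to MT-ND4, and the share of all 7 rows in the summed FPKM of a library in percent, by library (blue WT, red KO), with the mean ± SD of 4 libraries. KO at 0 h stands apart in the second panel at 28.6 to 37.5. In the fourth panel WT at 48 h holds the highest shares, 9.48% to 10.7%.

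After 24 h with palmitic acid the rows of all 7 subunits were higher than at 0 h in WT cells. The 6 plus-strand rows rose together by 1.88 ± 0.13 (MT-ND5) to 2.11 ± 0.15 (MT-ND3) on the log2 scale, or 3.67-fold to 4.31-fold. MT-ND6 rose by 0.86 ± 0.15, or 1.81-fold (adjusted p = 0.00109, limma), and the adjusted p of the others was at most 1.57e-06. The 7 of 7 called as higher compare with 1.46% of all genes tested. Libraries at 24 h lay above those at 0 h without overlap for each of the 7, against 3.66% of all genes. The median over the 7 was 2.04, and the median over all genes tested was 0.

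At 48 h the WT values were higher still. MT-ND2 had risen by 2.85 ± 0.15 and MT-ND1 by 2.67 ± 0.15 against 0 h, or 7.20-fold and 6.35-fold. MT-ND3, MT-ND4 and MT-ND4L rose by 2.40 to 2.46, MT-ND5 by 2.18 ± 0.13 and MT-ND6 by 1.28 ± 0.15 (2.43-fold). All 7 were called (limma adjusted p at most 4.35e-06), where 2.57% of all genes were called as higher. Between 24 h and 48 h only MT-ND2 was called in WT (0.76 ± 0.15, adjusted p = 0.0436, limma), against 0.122% of all genes, and the other estimates were 0.31 to 0.63. Libraries at 48 h lay above those at 24 h without overlap for MT-ND1, MT-ND2, MT-ND3 and MT-ND5, against 1.91% of all genes. The call of MT-ND2 was lost in 6 of the 8 fits with a library of these groups left out, with a highest adjusted p of 0.166 without WT 48 h replicate 3.

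In KO cells the 7 rows also rose, over a wider range. From 0 h to 24 h MT-ND1 rose by 2.16 ± 0.15 and MT-ND2 by 1.86 ± 0.15. MT-ND4 rose by 1.35 ± 0.15, MT-ND4L by 1.23 ± 0.21, MT-ND3 by 1.12 ± 0.15, MT-ND5 by 0.92 ± 0.13 and MT-ND6 by 0.79 ± 0.15. All 7 were called as higher, against 2.13% of all genes. At 48 h the changes from 0 h were 2.39 ± 0.15 for MT-ND1, 2.12 ± 0.15 for MT-ND2 and 0.67 ± 0.13 to 1.31 ± 0.15 for the other 5, again with 7 of 7 called as higher, against 3.40% of all genes. The highest limma adjusted p of the 14 values was 0.00369, for MT-ND4L at 48 h. Between 24 h and 48 h none of the 7 was called in KO by limma, where 0.516% of all genes were, and none had an unadjusted p under 0.05. The comparisons of 24 h and of 48 h with 0 h share the libraries at 0 h within a genotype.

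Of the 28 calls against 0 h, 7 were lost under some alternative. Without the variance trend these were MT-ND6 at 24 h in WT (limma adjusted p = 0.0560) and in KO (0.0579) and MT-ND5 at 48 h in KO (0.0567). In fits of only the 2 groups compared they were MT-ND6 in WT at both times (0.127 and 0.0784), and in KO MT-ND4L (0.0620) and MT-ND5 (0.0590) at 24 h and MT-ND5 (0.0945) and MT-ND6 (0.0647) at 48 h. Rescaling changed the background of these calls. With libraries set to the same summed FPKM outside the mitochondrial genome, the share of called genes that were higher went from 35.9% to 80.0% at 24 h in WT and from 34.6% to 80.6% at 48 h in KO. All 7 subunits remained called as higher under each of the 4 rescalings tried. Other values moved with time in these libraries: the summed FPKM of the 10 hepatocyte markers averaged 1254 (WT) and 1072 (KO) at 0 h, 1171 and 953 at 24 h, and finally 1911 and 1734. Of 5 immune markers 3 had a mean of 1 FPKM or more. These were LYZ (183) and CD68 (8.29), which both overlap an opposite-strand exon, and CD14 (1.64). The sum of the 5, most of it LYZ, averaged 127 (WT) and 178 (KO) at 0 h, 169 and 170 at 24 h, and then 223 and 293. The part of these shifts, and of the antisense share given above, in the changes of the subunits was not tested. In RNA from whole cultures, more mitochondrial RNA per cell and less RNA of other kinds cannot be told apart.

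Whether the change with palmitic acid differed between the genotypes was tested as an interaction, the change in KO minus the change in WT. At 48 h 3 of the 7 were called, all with a smaller rise in KO: MT-ND5 by -1.51 ± 0.18 (adjusted p = 0.000129, limma), MT-ND3 by -1.38 ± 0.21 (adjusted p = 0.00413) and MT-ND4 by -1.15 ± 0.21 (adjusted p = 0.0319). Over all genes 0.0522% were called, and 0.0348% with a negative difference. The 3 genes called with a positive one were MT-CO3, MT-ATP6 and MT-ATP8, which are listed at 0 in WT at 48 h. MT-ND4L had -1.46 ± 0.30 (adjusted p = 0.0827), MT-ND2 -0.73 ± 0.22 (0.462), MT-ND6 -0.48 ± 0.21 (0.712) and MT-ND1 -0.28 ± 0.21 (0.844). The rise of MT-ND5 was 4.54-fold in WT and 1.59-fold in KO, and that of MT-ND1 6.35-fold and 5.24-fold. The call of MT-ND4 was lost in 12 of 16 fits with 1 library left out (up to 0.131 without replicate 0 of WT at 48 h). The call of MT-ND4 was also lost under each of the 4 rescalings (0.127 to 0.305) and that of MT-ND3 under 1 of them (0.0649), and all 3 calls were lost without the variance trend (MT-ND5 adjusted p = 0.132).

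At 24 h the interaction gave no call for any of the 7 or for any gene tested, so the background was 0%. At an unadjusted p under 0.05 limma counted 950 of the 17252 genes tested, and 4 of them were subunits. These were MT-ND3 (-0.98 ± 0.21), MT-ND5 (-0.96 ± 0.18), MT-ND4L (-0.78 ± 0.30) and MT-ND4 (-0.74 ± 0.21), with adjusted p of 0.319, 0.222, 0.883 and 0.728. Without KO 0 h replicate 2 MT-ND5 was called (-1.10, limma adjusted p = 0.0122). Over the 16 fits with 1 library left out its adjusted p reached 0.602.

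Under palmitic acid KO and WT were also compared at the same time. At 24 h the estimates were -0.20 to 0.05 and no subunit was called, where 0.0116% of all genes were (limma). None had an unadjusted p under 0.05, and the 95% intervals lay within -0.52 and 0.48. At 48 h all 7 estimates were below 0, from -0.62 ± 0.13 (MT-ND5) to -0.42 ± 0.15 (MT-ND3), and none was called, where 0.0638% of all genes were. MT-ND5 had a limma adjusted p of 0.0790 and the others 0.212 to 0.507. All 7 had an unadjusted p under 0.05, as did 1131 of the 17252 genes tested. KO libraries lay below WT without overlap for MT-ND1, MT-ND3, MT-ND4L and MT-ND5, against 2.36% of all genes. The median over the 7 was -0.54, and over all genes tested it was near 0 (-0.0035). Since WT and KO at 48 h also enter the interaction, the 2 results share these libraries.

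Together the 7 rows at 0 h made up 2.53% ± 0.269 of the summed FPKM of WT libraries and 2.84% ± 0.249 of that of KO libraries (SD, n = 4), with overlap. The share was 7.04% ± 0.243 and 6.61% ± 0.337 at 24 h, also with overlap. At 48 h it was 10.0% ± 0.569 in WT and 7.09% ± 0.738 in KO, and every KO library (6.14% to 7.87%) lay below every WT library (9.48% to 10.7%). WT gained share between 24 h and 48 h without overlap, whereas KO overlapped between these times.

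Other rows of the mitochondrial genome qualify the shares. The 2 ribosomal and 22 transfer RNA genes were listed at 0 in all 24 libraries. MT-CO1 had only zeros at 24 h and 48 h and MT-CO3, MT-ATP6 and MT-ATP8 only zeros in the 4 WT libraries at 48 h. Such zeros may be failed estimates, and no change is read from them. They lower the summed FPKM of WT at 48 h and so raise its share of the 7 against that of KO. Over FPKM outside the mitochondrial genome, which the zeros do not enter, the share at 48 h was 11.3% in WT and 8.23% in KO, without overlap. None of the 7 complex I rows was at 0 in any library. Values of MT-CYB and MT-CO2, which were never at 0, rose in WT by 2.29 ± 0.15 and 2.29 ± 0.13 at 48 h and in KO by 1.50 ± 0.15 and 1.88 ± 0.13.

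Among themselves the 6 plus-strand rows moved together over the 24 libraries, with Pearson correlations of log2 values from 0.883 to 0.987 between pairs. After the group means were removed the correlations were still 0.460 to 0.871, highest for MT-ND4 with MT-ND5. MT-ND6 correlated with the 6 at 0.757 to 0.883 over libraries but at -0.467 to -0.105 after the group means were removed. All pairs share the same libraries, depth and groups, so these are descriptions. Among 8090 genes averaging 5 FPKM or more, the rows most like the mean of the 6 were MT-CYB (0.982), an Ensembl entry with no symbol in the annotation used here, ENSG00000279576.1 (0.978), MT-CO2 (0.977), AC073957.3 (0.937) and MTATP6P1 (0.935), a nuclear copy of MT-ATP6. Outside the mitochondrial genome RNF224 (0.927) and AC005005.3 (0.923) came next. The rows most like MT-ND6 were RGL4 (0.935), CEMP1 (0.928), AC006128.1 (0.894), AC073957.3 (0.893) and FOXH1 (0.890), and all 5 overlap an exon of an opposite-strand gene.

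Nuclear copies of mitochondrial genes could share reads with the 7. The table holds 214 rows named as copies of these genes, and the highest was MTND1P23 (chr1:629062-629433), with a mean of 177 FPKM. It aligned to MT-ND1 over 352 bases with 99.1% identity, and its level was 21.9% of that of MT-ND1. The next was MTND2P28 (chr1:629640-630683) at 19.8 FPKM, 98.4% identical to MT-ND2 over 1042 bases and at 1.78% of its level. MTND1P23 rose by 1.71 and 2.62 at 24 h and 48 h in WT and by 1.93 and 2.05 in KO (limma adjusted p 0.000209 to 0.0187). The sources used here do not give how reads were split between such rows, and the level of MT-ND1 is uncertain for that reason.

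The nuclear subunits of complex I gave calls in both directions. Of 37 tested, none was called in KO against WT at 0 h, 24 h or 48 h, and their medians were 0.03, -0.08 and -0.07. Against 0 h in WT none was called at 24 h (median -0.08) and 2 fell at 48 h (median 0.14), where 2.6% and 4.22% of all genes were called as lower. These were NDUFB11, an accessory subunit of the membrane arm (-1.20 ± 0.24), and NDUFS8, an iron-sulfur subunit (-1.96 ± 0.60). In KO NDUFB5 rose (2.66 ± 0.79) and NDUFB11 fell at 24 h (median of the 37, 0.02), and 3 were higher and 1 lower at 48 h (median 0.02). Over all genes 3.51% and 6.42% were called as lower in KO, and the shares called as higher are given above. NDUFB11 fell by 0.92 on the log2 scale at 24 h and by 1.15 at 48 h, while at 48 h NDUFAB1, the mitochondrial acyl carrier protein (3.28 ± 0.94), NDUFB5 (2.78 ± 0.79) and NDUFC2 (1.98 ± 0.40) rose.

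These counts and medians moved with the scaling. With the same summed FPKM outside the mitochondrial genome, 7 nuclear subunits were higher and 0 lower at 48 h in KO (median 0.58), 3 higher and 1 lower at 48 h in WT (median 0.42), and 2 higher at 24 h in WT (median 0.25), while the median of all genes was 0.41, 0.34 and 0.24. The nuclear rows were also less precise. Their mean levels ran from 1.86 to 187 FPKM with a median of 15.2, and 17 of the 37 were at 0 in at least 1 library. The median standard error of a fold change was 0.72 for them and 0.15 for the 7 mitochondrial rows. NDUFB11 and NDUFC2 are among 17 nuclear subunits whose exons overlap an opposite-strand gene, and their values are uncertain for that reason.

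**Figure D5:**
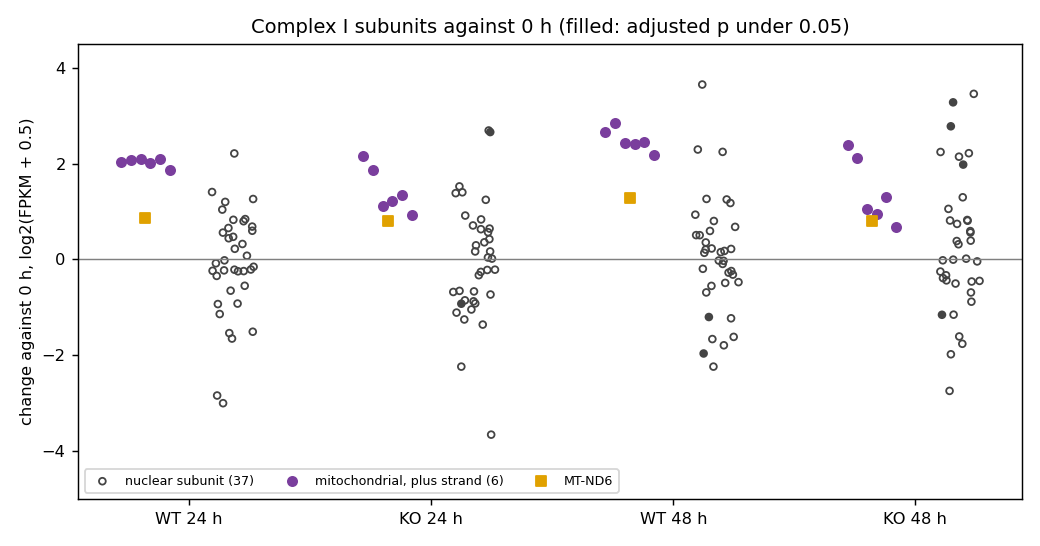
Change against 0 h on the log2(FPKM + 0.5) scale for the 6 plus-strand rows, MT-ND6 and 37 nuclear subunits of complex I, in each genotype at 24 h and 48 h, with filled symbols where the adjusted p was under 0.05. All 7 mitochondrial rows lie above 0 in each column, while the nuclear rows lie on both sides of 0 with medians of -0.08 to 0.14.

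Genes that act on complex I assembly or on mitochondrial RNA and DNA were looked at in the same way. No gene of these lists was called in KO against WT at any time, where 0.0985%, 0.0116% and 0.0638% of all genes were at 0 h, 24 h and 48 h. Of 17 assembly factors only NDUFAF7, a methyltransferase of complex I assembly, was called. It fell in WT (-1.00 and -1.56 at 24 h and 48 h) and in KO (-0.84 and -1.20). Of all genes tested 2.6% and 4.22% were called as lower in WT at 24 h and 48 h, and 3.51% and 6.42% in KO. Of 9 genes of mitochondrial transcription, TEFM, an elongation factor, fell in WT (-0.85 and -1.22 at 24 h and 48 h) and in KO (-1.53 and -2.31). MTERF2 rose in KO at 24 h (0.97 ± 0.27), where 2.13% of all genes were called as higher. TFAM, which packages and activates the mitochondrial genome, and POLRMT, its RNA polymerase, were not called in any comparison, with means of 36.3 and 12.3 FPKM.

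Of 8 genes of mitochondrial DNA maintenance 2 were called as lower than at 0 h in KO, at both 24 h and 48 h. Of all genes tested 3.51% and 6.42% were called as lower there. POLG, the replicative polymerase, fell at 24 h and 48 h in WT (-1.07 and -1.62) and in KO (-1.44 and -2.33). TWNK, the replicative helicase, fell in KO (-1.93 and -1.92). DGUOK, a nucleoside kinase, rose in WT at 24 h (2.71 ± 0.76), where 1.46% of all genes were called as higher. Of 18 genes of mitochondrial RNA processing and decay only FASTKD1 was called, higher in WT at 48 h (2.38 ± 0.65), where 2.57% of all genes were. LRPPRC and SLIRP, which bind and stabilise mitochondrial messenger RNAs, averaged 11.6 and 10.3 FPKM and were not called. NDUFAF7, TEFM, MTERF2, POLG, TWNK and DGUOK all overlap an opposite-strand exon.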

How the data were processed

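Poly(A)-selected RNA of 24 Huh7 libraries was analysed from FPKM values that the authors deposited, 1 column per library. Per the submitters' processing notes, the tools were STAR, Cufflinks and Cuffdiff and the build GRCh38. Their versions, order and strand setting are unknown here. No scaling between libraries is stated, and none was added in the fit reported first. Replicate numbers came from sample titles and groups from genotype, treatment and title labels. The treatment protocol in the labels gives a harvest on day 1 only, so the times came from the titles.

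Symbols and positions came from GENCODE release 29, which matched 57375 of 58024 identifiers (98.9%), and 45 copies on chromosome Y were left out. Depth was read from the steps between the lowest values of single-transcript genes of 2000 bp or longer. Fragment numbers per row are approximate, and counting error alone came to at most 11.0% of a group's mean, for MT-ND1 in KO at 0 h. Values were compared with limma 3.58.1 (R 4.3.3) on log2(FPKM + 0.5), over 17252 genes averaging 0.5 FPKM or more, in a fit of 6 group means with an intensity trend (18 residual degrees of freedom, prior 4.63) and 11 comparisons, each adjusted by Benjamini-Hochberg. Fold changes on this scale understate low genes. No 2 libraries were identical. The fit was tested on simulated data with 200 changed genes. Python 3.11.15, numpy 2.4.6, pandas 2.3.3, Biopython and Matplotlib 3.10.9 made tables and plots.

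The members, lists and comparisons were chosen with earlier results of these data known. Genes named by rule were the 7 members, mitochondrial rows a result turns on, the highest nuclear copies, up to 4 called genes per list and comparison, and the 5 rows most similar by Pearson correlation. Alternatives were pseudocounts of 0.1 and 1, no filter or one at 2 FPKM, 4 rescalings, other variance models, the replicate number as a block, only the groups compared, each library left out, and other denominators for ratio and share.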

Additional observations from a re-analysis of the deposited data

Results flagged for a closer look

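The change of 3 rows from 0 h to 48 h differed between the genotypes by the test of the interaction itself. The difference, KO minus WT on the log2(FPKM + 0.5) scale, was -1.51 for MT-ND5 (limma adjusted p = 0.000129), -1.38 for MT-ND3 (0.00413) and -1.15 for MT-ND4 (0.0319), and the KO libraries rose less in each. These 3 rows were higher in KO than in WT at 0 h and lower at 48 h by their estimates, so both ends of the comparison enter the value. At 0 h MT-ND4 overlapped between the genotypes.

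No library stood apart by Dixon's criterion in any of 54 tests of a group of 4 libraries (7 rows, the ratio of MT-ND6 to the other 6 and the share, in 6 groups each), where chance flags about 1 in 20 groups.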

How the results depend on the processing

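Over 77 estimates (7 subunits in 11 comparisons), 1729 alternative values were computed: 1632 kept direction and side of the threshold, 47 lost the call, 11 gained it and 39 changed sign. No sign change touched a call, and they fell on 11 estimates. For KO against WT at 0 h the number called was 0 without the variance trend and 0 with only the groups compared, and 2 to 3 with 1 library left out. At 48 h it was 1 with array weights (MT-ND5) and 0 to 0 with 1 library left out. For 48 h against 24 h in WT, 0 were called with no filter, median-of-ratios rescaling, quantile normalization, the same summed FPKM outside the mitochondrial genome, no trend, or only these groups, 3 with the same summed FPKM (MT-ND1, MT-ND2 and MT-ND6), and 0 to 1 with 1 library left out. For the interaction at 48 h 0 were called without the trend, 1 with the same summed FPKM outside the mitochondrial genome (MT-ND5) and 1 with only the groups compared (MT-ND5), 2 with median-of-ratios, quantile or same summed FPKM scaling (MT-ND3 and MT-ND5), and 2 to 3 with 1 library left out. At 24 h it was 0 to 1. The cause of these changes was not tested, but the fits of only the groups compared have fewer libraries. Against 0 h all 7 kept their calls with any 1 library left out, but MT-ND6 in both genotypes and MT-ND4L and MT-ND5 in KO lost a call without the trend or with only the groups compared (adjusted p 0.0560 to 0.127).

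Over 3341 genes the replicate numbers showed little pairing of the libraries. Same-numbered libraries deviated together with r above 0.1 in 2 of 36 cases (-0.125 to 0.144), and 7 of 36 correlated best with their own number. That check does not speak for the 7 rows by themselves, where replicate 2 had the highest MT-ND6 in 6 of 6 groups. With the replicate block 4 subunits were called in KO against WT at 0 h (adding MT-ND4 and MT-ND4L) and 2 at 48 h (MT-ND5 and MT-ND6). In the fit with no filter limma met many variances of 0, so its values are unreliable.

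The ratio of MT-ND6 became 6.13, 3.26, 3.07, 2.94, 3.37 and 3.52 over MT-ND5 alone (WT and KO at 0 h, 24 h, 48 h in turn) and 25.4, 16.7, 11.4, 10.6, 11.2 and 10.9 over the geometric mean. With a library left out it ranged over 2.63 to 2.96, 1.34 to 1.68, 1.15 to 1.37, 1.07 to 1.26, 1.20 to 1.52 and 1.16 to 1.42. The share of the 7 became 7.48%, 8.49%, 16.3%, 15.2%, 23.0% and 15.3% of protein-coding FPKM, and outside the mitochondrial genome 8.03%, 7.47%, 11.3% and 8.23% at the 4 later groups, where KO no longer overlapped WT at 24 h. The protein-coding sum holds MT-ATP8, MT-ATP6 and MT-CO3, listed at 0 in WT at 48 h but averaging 38547, 6199 and 4603 FPKM in KO at 48 h. This widens the gap between 23.0% and 15.3%. Depth limits mainly MT-ND1 and MT-ND4L at 0 h, at 65 and 73 fragments in the lowest library.

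The sign changes in KO against WT at 24 h were MT-ND2 with median-of-ratios (-0.00012) and quantile scaling (-0.014), and MT-ND3 (0.033) and MT-ND5 (0.054) with quantile scaling. With a library left out MT-ND2 ran from -0.065 to 0.091, MT-ND3 from -0.12 to 0.029, MT-ND4 from -0.090 to 0.045 and MT-ND4L from -0.082 to 0.21. For 48 h against 24 h in KO, median-of-ratios, quantile, same summed FPKM and same summed FPKM outside the mitochondrial genome gave 0.015, 0.067, 0.087 and 0.13 for MT-ND3 and 0.030, 0.26, 0.10 and 0.14 for MT-ND4. MT-ND5 had 0.021 with quantile scaling and MT-ND6 -0.00099 with array weights. With a library left out MT-ND3 ran from -0.14 to 0.023, MT-ND4 from -0.11 to 0.024 and MT-ND6 from -0.11 to 0.15. MT-ND6 ran from -0.13 to 0.011 in KO against WT at 0 h and from -0.14 to 0.021 in the interaction at 24 h, which was 0.026 with quantile scaling.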

Other observations

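The rows of MT-ND6 and of the other 6 subunits ordered the replicate numbers in opposite ways, a pattern read after the values were seen and not tested. Replicate 2 had the highest MT-ND6 in 6 of 6 groups and the lowest summed FPKM of the other 6 in 5 of 6. Replicate 3 had the lowest MT-ND6 in 4 of 6 groups and the highest sum of the other 6 in 4 of 6. The ratio of MT-ND6 to the other 6 was accordingly highest in replicate 2 in 5 of 6 groups, at 2.19 in KO at 0 h, 1.67 and 1.57 in WT and KO at 24 h and 1.81 and 1.80 at 48 h. The labels name no batch for these numbers.

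MT-ND5 against MT-CYB, its neighbour across MT-ND6 on the plus strand, was 5.02 ± 0.0266 in KO at 0 h (SD, n = 4) and 3.60 ± 0.583 in WT, without overlap. At 48 h the order was turned, with 2.84 ± 0.0588 in KO and 3.30 ± 0.184 in WT, again without overlap. The SD in KO at 0 h was below the counting error of MT-ND5 alone, 1.41% of its mean there, and is no measure of precision. This ratio was not planned beforehand and was not tested.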
